A study of Mus musculus with 6 samples.

Results

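The genes described are 10 markers of white fat cells and of lipid storage, taken by symbol from a list and found in the deposited table of 36727 genes. They comprise 4 hormones and secreted proteins of fat (Adipoq, Lep, Retn and Cfd), 3 proteins of the lipid droplet surface (Plin1, Plin4 and Cidec), 2 proteins that handle fatty acids (Lpl and Fabp4) and 1 transcription factor (Pparg). All 10 had counts in every library and passed the filter on low counts, as did 16455 genes of the table. By its labels, the RNA came from ovarian tissue, staged to estrus, of adult female F4 inbred Swiss albino mice aged 135 to 140 days. The labels set 3 libraries of high litter size (replicates 1, 3 and 4) against 3 of low litter size (replicates 1, 2 and 5) and give no other difference between them and no treatment. Polyadenylated RNA was sequenced, and the table holds estimated reads per gene. Nothing in the labels ties each library to its own animal, and a p-value here therefore reflects only the scatter of these samples, which may be technical. Library values are always given in the order of high replicates 1, 3 and 4, then low replicates 1, 2 and 5.

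White fat cells keep triglyceride in a large droplet coated by perilipins and secrete hormones that report on energy stores. PPARG, together with C/EBP factors, switches on the genes of the mature fat cell, among them those for fatty acid uptake, droplet coating and hormone secretion. The mouse ovary lies beside the gonadal fat pad. Steroid-making cells of the ovary also hold lipid droplets, and Pparg, Fabp4 and Lpl are known from further cell types such as granulosa cells, endothelium and macrophages.

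The promoter letters are shown because C/EBP factors and PPARG are the classical activators of this group of genes. Whether these factors had a part in the differences between libraries was not tested. RefSeq promoters on GRCm38.p6, from 250 bases before to 50 bases after a start, were matched for 8 of the 10 genes, with 11 starts in all. An exact match on either strand to TTNNGCAA, a form of the C/EBP site, was found in 4 of the 11 and in 10.8% of all 32851 promoters in the table. The 4 are printed from 5′ to 3′ on the strand of the gene, with the matches in capitals. They lie at chr6:29059971-29060270 (plus strand, Lep), chr7:79732727-79733026 (minus strand, Plin1), chr6:113434715-113435014 (minus strand, a start of Cidec) and chr6:115421816-115422115 (plus strand, a downstream start of Pparg).
Lep: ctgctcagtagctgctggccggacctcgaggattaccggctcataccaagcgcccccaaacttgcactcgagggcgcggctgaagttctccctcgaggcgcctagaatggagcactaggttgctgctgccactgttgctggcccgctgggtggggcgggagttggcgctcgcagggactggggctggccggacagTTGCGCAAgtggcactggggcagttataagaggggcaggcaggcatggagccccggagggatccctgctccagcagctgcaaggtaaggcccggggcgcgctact
Plin1: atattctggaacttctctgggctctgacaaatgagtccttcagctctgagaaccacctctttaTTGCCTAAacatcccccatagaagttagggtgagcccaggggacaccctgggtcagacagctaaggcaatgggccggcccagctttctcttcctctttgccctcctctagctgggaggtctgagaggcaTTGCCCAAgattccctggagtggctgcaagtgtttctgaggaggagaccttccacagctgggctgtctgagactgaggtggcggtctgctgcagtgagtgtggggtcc
Cidec: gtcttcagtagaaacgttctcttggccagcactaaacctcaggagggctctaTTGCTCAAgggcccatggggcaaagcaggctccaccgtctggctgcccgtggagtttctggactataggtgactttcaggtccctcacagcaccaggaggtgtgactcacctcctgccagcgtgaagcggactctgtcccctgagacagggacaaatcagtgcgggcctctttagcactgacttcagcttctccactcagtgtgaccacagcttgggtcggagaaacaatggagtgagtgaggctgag
Pparg: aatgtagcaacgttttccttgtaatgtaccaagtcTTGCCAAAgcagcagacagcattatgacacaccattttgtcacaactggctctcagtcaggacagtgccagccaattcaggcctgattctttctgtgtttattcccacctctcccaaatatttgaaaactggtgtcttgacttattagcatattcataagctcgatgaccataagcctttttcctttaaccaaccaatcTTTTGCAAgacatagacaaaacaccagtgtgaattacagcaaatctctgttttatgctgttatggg
These motifs were chosen after the expression values were seen. The Lep match begins 55 bases before the start and is the palindrome TTGCGCAA, which 0.183% of all promoters hold. The Plin1 matches begin 187 and 58 bases before the start, the Cidec match 198 bases, and the Pparg matches 215 and 16 bases.

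Further motifs were searched in the same way, on both strands. The direct repeat of spacing by a single base, a form of the site of PPARG with its partner RXR, was in 0 of the 11 windows and in 0.381% of all promoters. Its repeated unit AGGTCA was in 2 of the 11, both of Pparg, and in 16.3% of all. The looser TTNNGNAA, which includes TTNNGCAA, was in 6 of the 11 and in 40.7% of all. CCAAT was in 4 of the 11 (Adipoq, Plin4 and 2 starts of Pparg) and in 37.4% of all, and CACGTG was in 0 and in 7.15%. TATAAA, its longer form TATAAAA and the looser TATANA were each in 1 of the 11, the same Pparg start, and in 13.6%, 5.48% and 24.7% of all. These matches describe letters in a short window and no binding was measured.

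Before the comparison, the libraries were checked against their tissue label. Total estimated counts ran from 17620903 to 24758222. Of 10 oocyte markers, 10 were under 1 CPM in high replicate 1, 9 in high replicate 3 and 9 in low replicate 2, against 1 or 2 in the other libraries (CPM, the count as a share of its TMM-scaled library, in parts of 1e6). The follicle-stimulating hormone receptor Fshr had 0 counts in high replicates 1 and 3, and the egg coat gene Zp3 had 0 counts in high replicate 1 and low replicate 2. A count of 0 allows a level of up to 0.153 CPM in high replicate 1, 0.187 CPM in high replicate 3 and 0.160 CPM in low replicate 2 (3 counts, covering counting error only). High replicates 1 and 3 and low replicate 2 thus showed little of the oocyte signal that an ovary label implies. What tissue they held was not tested. The 10 fat-cell genes had counts in all 6 libraries.

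The 10 genes were far more abundant in high replicate 3 than elsewhere, and lowest in low replicate 1 for 9 of the 10. Together they took 0.495, 2.87 and 0.390% of all counts with high litter size and 0.0516, 0.452 and 0.178% with low litter size (95% Wilson intervals within 0.00749 percentage points of each value, covering counting error only). High replicate 3 was the highest library for 10 of 10 genes, by 2.68-fold (Lep) to 11.7-fold (Cidec) over the second. Low replicate 2 had more than high replicate 1 for 6 of the 10 and more than low replicates 1 and 5 for 10 of 10. In bulk tissue, more fat cells and more RNA of these genes per cell cannot be told apart.

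**Figure D1:**
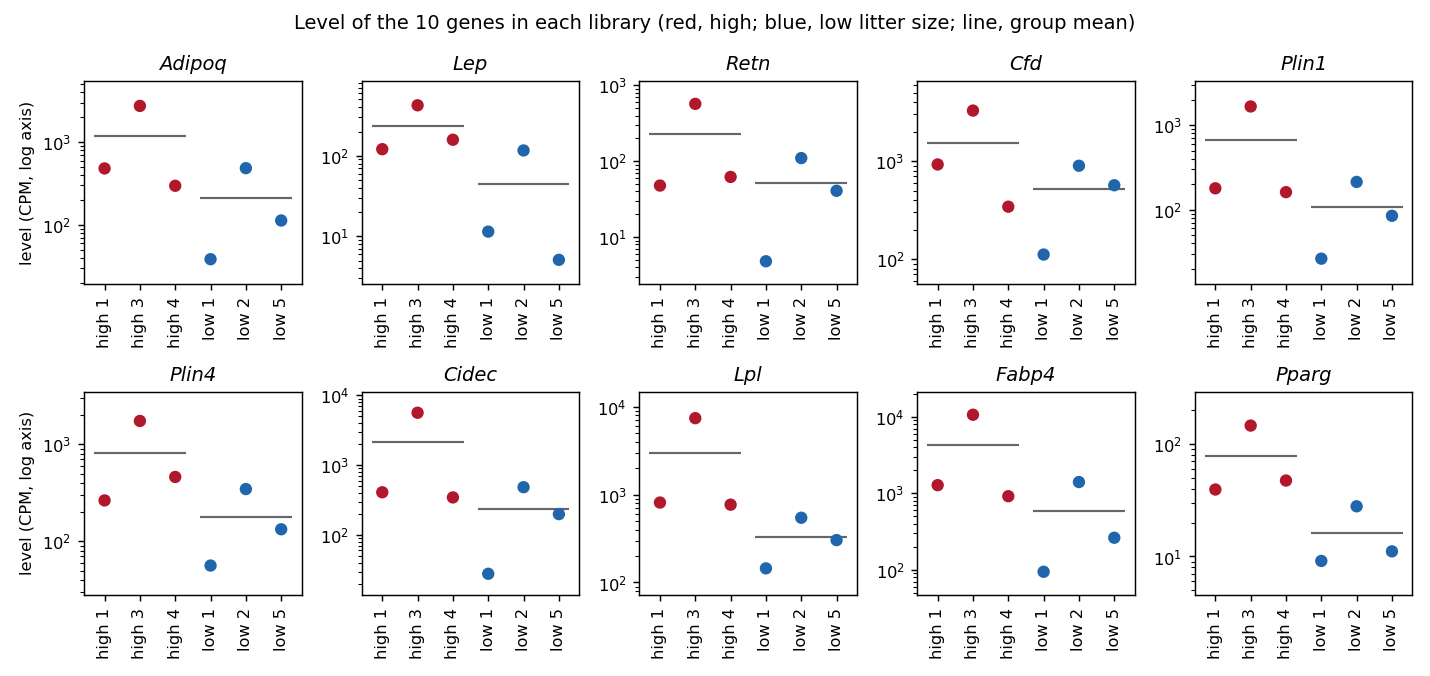
Level in CPM (log axis) of each of the 10 genes in the 6 libraries, with red points for high and blue points for low litter size and a grey line at each group's mean. High replicate 3 is the highest point in every panel, and low replicate 2 lies above high replicate 1 in 6 of the 10.

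No gene of the 10 passed the test of high against low litter size, although the fold change was positive for 10 of 10. Over all 16455 genes tested, 0.00608% passed (1 gene) and 55.3% had a positive log2 fold change. The 10 genes had log2 fold changes from 1.53 (Cfd) to 3.18 (Lpl), with a median of 2.44, against a median of 0.07 over all genes tested, and edgeR quasi-likelihood adjusted p from 0.245 (Pparg) to 0.532 (Cfd). At an unadjusted p under 0.05 the test gave 3 of the 10 (Pparg, Lpl and Plin4), all higher, against 6.56% of all genes higher at that level. The high libraries lay entirely above the low libraries for 3 of the 10 (Lep, Lpl and Pparg), and for 8.75% of all genes tested, while 19.5% of all genes were apart in either direction. Without high replicate 3 the median of the 10 was 0.90 and 0 passed, with 10 of 10 positive, as were 51.7% of all genes in that fit.

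Among the secreted proteins, Adipoq encodes adiponectin, the insulin-sensitizing hormone that fat cells release in large amounts (ENSMUSG00000022878, chromosome 16, 23146536 to 23158028, GRCm38, protein-coding). Its level was 482, 2751 and 297 CPM with high and 38.4, 485 and 113 CPM with low litter size. Low replicate 2 thus was level with high replicate 1 and lay above high replicate 4, so the groups overlapped. The group levels were 1177 ± 1367 CPM and 212 ± 239 CPM (SD, n = 3), a log2 fold change of 2.47 (SE 1.19, edgeR adjusted p = 0.405), or 0.88 without high replicate 3.

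Lep encodes leptin, the hormone by which fat stores signal to the brain and the reproductive axis (ENSMUSG00000059201, chromosome 6, 29060220 to 29073877). It had 121, 423 and 158 CPM with high and 11.4, 116 and 5.11 CPM with low litter size. The groups did not overlap, but the gap between high replicate 1 and low replicate 2 was only 1.04-fold. Lep was the only member of the 10 whose lowest library was low replicate 5. Its log2 fold change was 2.40 (SE 1.19, edgeR adjusted p = 0.413), or 1.66 without high replicate 3 and 4.83 without low replicate 2.

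Retn encodes resistin, a cysteine-rich hormone of mouse fat (ENSMUSG00000012705, chromosome 8, 3655770 to 3660110). Its level was 47.7, 570 and 62.0 CPM with high and 4.79, 110 and 40.7 CPM with low litter size. Low replicate 2 was the second highest library, and low replicate 5 came close to high replicate 1. The log2 fold change of 2.13 (SE 1.32, edgeR adjusted p = 0.509) became 0.09 without high replicate 3.

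Cfd encodes adipsin, the complement factor D protease that cleaves factor B (ENSMUSG00000061780, chromosome 10, 79890853 to 79892655). It had 925, 3275 and 343 CPM with high and 112, 898 and 568 CPM with low litter size. Here high replicate 4 was below low replicates 2 and 5, an order no other member had. Its log2 fold change was the smallest of the 10, at 1.53 (SE 1.0, edgeR adjusted p = 0.532), and 0.28 without high replicate 3. C3, the complement protein on which this protease pathway acts, chosen here after its values were seen, had 1190, 4831 and 3303 CPM with high and 29921, 21013 and 2431 CPM with low litter size (log2 fold change -2.52, SE 1.03, edgeR adjusted p = 0.340).

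Of the proteins of the lipid droplet, Cidec, which lets small droplets pass their lipid to larger ones (ENSMUSG00000030278, chromosome 6, 113424634 to 113435760), had 409, 5643 and 346 CPM with high and 27.8, 484 and 199 CPM with low litter size. The highest library held 203 times the level of the lowest, the widest span of the 10. Apart from high replicate 3, both high libraries were below low replicate 2. The log2 fold change was 3.17 (SE 1.45, edgeR adjusted p = 0.381), or 0.68 without high replicate 3.

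Plin1 encodes perilipin 1, which coats the fat-cell droplet and holds back lipases (ENSMUSG00000030546, chromosome 7, 79720218 to 79732903). It had 179, 1666 and 161 CPM with high and 26.3, 213 and 84.6 CPM with low litter size. Low replicate 2 was again second, so the groups overlapped (log2 fold change 2.63, SE 1.17, edgeR adjusted p = 0.371, and 0.66 without high replicate 3). Plin4, a perilipin found on newly forming droplets (ENSMUSG00000002831, chromosome 17, 56100591 to 56109803), had 264, 1741 and 461 CPM with high and 56.4, 346 and 133 CPM with low litter size. For this gene the second library was high replicate 4, and high replicate 1 lay below low replicate 2. Its log2 fold change was 2.20 (SE 0.92, edgeR adjusted p = 0.347), or 1.03 without high replicate 3.

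Of the proteins that handle fatty acids, Lpl encodes lipoprotein lipase, which frees fatty acids from circulating lipoproteins (ENSMUSG00000015568, chromosome 8, 68880491 to 68907448). Its level was 814, 7434 and 769 CPM with high and 145, 546 and 304 CPM with low litter size. The groups did not overlap, with the lowest high library 1.41 times the highest low library. The log2 fold change of 3.18 was the largest of the 10 (SE 1.08, edgeR adjusted p = 0.296), and it was 1.26 (SE 0.54, edgeR adjusted p = 0.417) without high replicate 3. Fabp4, the carrier of fatty acids in the fat-cell cytosol (ENSMUSG00000062515, chromosome 3, 10204088 to 10208576), had 1278, 10662 and 916 CPM with high and 94.0, 1404 and 262 CPM with low litter size. Low replicate 2 exceeded both high replicates 1 and 4. Its log2 fold change was 2.87 (SE 1.36, edgeR adjusted p = 0.395), or 0.91 without high replicate 3.

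Pparg, the nuclear receptor that drives fat-cell differentiation (ENSMUSG00000000440, chromosome 6, 115360951 to 115490399), had 39.4, 146 and 47.4 CPM with high and 9.13, 27.9 and 11.1 CPM with low litter size. The groups did not overlap, and the lowest high library was 1.41 times the highest low library. Its spread between libraries was the smallest of the 10, 16.0-fold from lowest to highest. The group levels were 77.6 ± 59.4 CPM and 16.1 ± 10.3 CPM (SD, n = 3), a log2 fold change of 2.27 (SE 0.67, edgeR adjusted p = 0.245), or 1.44 without high replicate 3. DESeq2 gave an adjusted p of 0.0137 and the edgeR likelihood ratio test 0.0297, and no other member was called under any setting run. DESeq2 called 2.26% of genes as higher and left 3 of the 10 (Cidec, Lpl and Fabp4) without an adjusted p. In the edgeR likelihood ratio test 0.954% of genes were called higher.

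**Figure D2:**
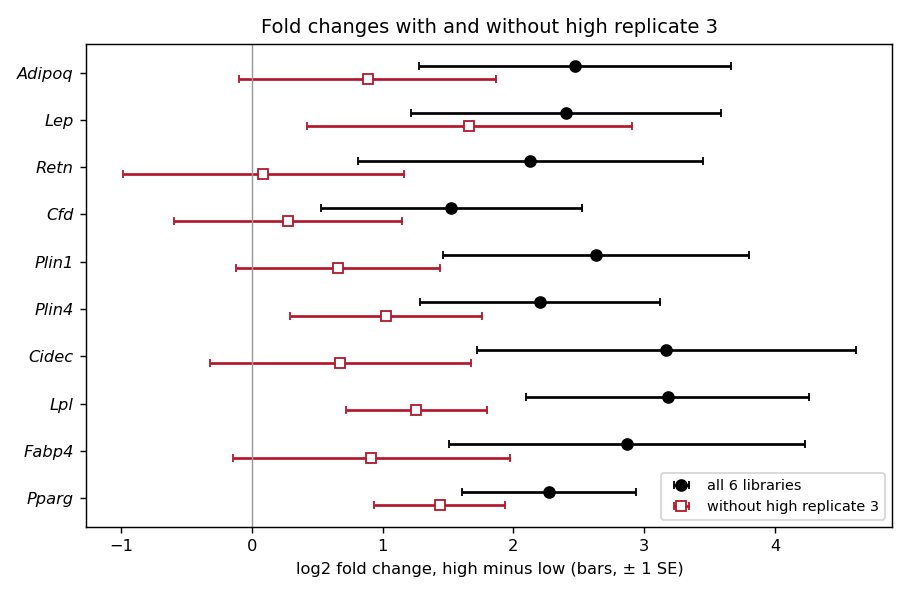
Log2 fold change, high minus low litter size, of the 10 genes from the edgeR quasi-likelihood fit, with all 6 libraries (black circles) and without high replicate 3 (open red squares), and bars of 1 SE to each side. Every value is positive in both fits and each is smaller without high replicate 3, down to 0.09 for Retn.

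Per length, Fabp4 and Cfd were the most abundant of the 10 transcripts. The levels were divided by the length of the longest annotated coding transcript, and the medians over 6 libraries were 1224 CPM per kb for Fabp4 and 795 for Cfd, then 301 for Adipoq, 219 for Cidec and 160 for Lpl. Plin1 (60.4), Plin4 (53.0), Retn (48.2) and Lep (36.4) followed, and Pparg had 15.8. Fabp4 and Cfd were among the 3 highest of the 10 in 6 of 6 libraries and Adipoq in 3. Within a library, Cfd lay above Adipoq, Lpl above Plin1 and Retn above Lep in 6 of 6 libraries. Each of the other neighbours in this order held its place in 3 to 5 of the 6 libraries, so their order varied between libraries. The isoform used in these tissues sets the true length, which was not measured.

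The proportions between the genes were steadier than their levels. The ratio of Fabp4 counts to Adipoq counts stayed between 2.32 and 3.88 in the 6 libraries, a 1.67-fold range, while Adipoq itself spanned 71.6-fold. Plin1 stayed between 0.371 and 0.749 of Adipoq. The ratio of Lep to Adipoq varied most, 11.8-fold, with 0.251, 0.154 and 0.532 with high and 0.298, 0.240 and 0.0452 with low litter size.

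Low replicate 5 therefore held little Lep for its Adipoq, and the same library had the highest ratios of Cfd (5.03, against 1.16 to 2.91 in the others) and Retn (0.361, against 0.0991 to 0.226). Pparg was highest relative to Adipoq in low replicate 1, at 0.238, and lowest in high replicate 3, at 0.0531. Lpl was likewise highest relative to Adipoq in low replicate 1, at 3.77, and lowest in low replicate 2, at 1.13. The library with least Adipoq thus had the largest ratios of Pparg and Lpl, while its ratio of Fabp4 was 2.45. These ratios are values of single libraries, with no test.

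**Figure D3:**
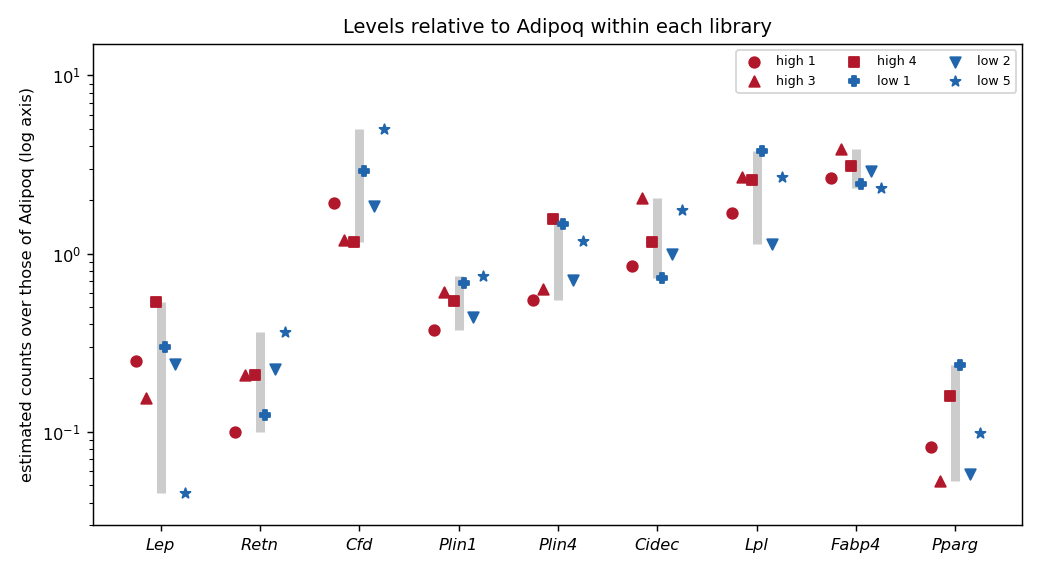
Estimated counts of 9 genes divided by those of Adipoq in the same library (log axis), with red symbols for high and blue symbols for low litter size and a grey bar over the range. The bar is shortest for Fabp4 (1.67-fold) and longest for Lep (11.8-fold), where low replicate 5 lies far below the rest.

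Other genes of fat cells, in 9 lists, mostly had positive fold changes as well. Of 113 listed genes 110 were tested. The log2 fold change was above 0 for 97 and below 0 for 13, and 0 passed in either direction with the edgeR quasi-likelihood test. Their median log2 fold change was 1.63. Without high replicate 3 it was 0.50, with 86 of 110 positive. The groups did not overlap for 22 of the 110 with high above low, and for 4 with low above high, against 8.75% and 10.8% of all genes. High replicate 3 was the highest library for 83 of the 110 (75.5%), against 27.7% of all genes tested. At an unadjusted p under 0.05 there were 39 higher and 4 lower, where 6.56% and 7.82% of all genes were. DESeq2 called 13 higher and 4 lower, and left 15 without an adjusted p, where it called 2.26% and 4.3% of all genes. The values named below did not pass with the edgeR quasi-likelihood test, where the adjusted p of the 110 was 0.14 or more. Of the genes named by rule below, the edgeR likelihood ratio test called Zfp423, Klf4, Cidea, Me1, Acsl1, Mrap, Irs2, Dio2 and Elovl3. They were picked for small p in these same libraries, so such calls were largely set in advance. Over all 16455 genes, the likelihood ratio test called 157 higher and 474 lower. Klf4 had an adjusted p of 0.000127 in that test and 7.7e-06 with DESeq2.

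**Figure D4:**
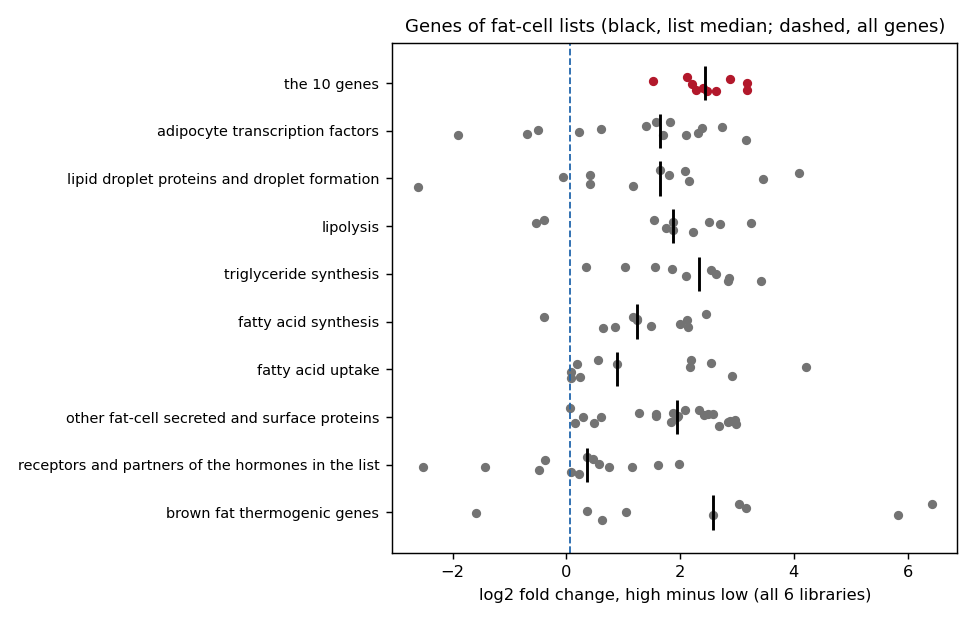
Log2 fold change, high minus low litter size, of the 10 genes (red) and of each tested gene in 9 lists of fat-cell genes (grey), with a black line at each list's median and a dashed line at the median of all genes tested (0.07). The list medians run from 0.37 for hormone receptors and partners to 2.58 for brown fat genes, and the 10 genes lie between 1.53 and 3.18.

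In the list of transcription factors (14 tested, 11 positive, median 1.64, or 0.33 without high replicate 3), the 2 of smallest p had fold changes of opposite sign. Zfp423, a zinc finger factor that commits precursors to fat, had 13.7, 80.7 and 14.1 CPM with high and 2.83, 5.39 and 7.99 CPM with low litter size (log2 fold change 2.74, SE 0.83). Klf4, an early factor of the fat programme that other cells also express, had 38.1, 51.1 and 32.9 CPM with high and 173, 181 and 102 CPM with low litter size (-1.9, SE 0.3). For both genes the groups did not overlap. Cebpa, the C/EBP factor of mature fat cells, chosen after its values were seen, had 110, 752 and 107 CPM with high and 31.5, 104 and 60.6 CPM with low litter size (2.31, SE 0.9), so the groups were apart by a narrow gap. The other C/EBP factors listed did not share this pattern, and their groups overlapped. Cebpb had 10.5, 108 and 11.9 CPM with high and 55.7, 69.8 and 57.8 CPM with low litter size (-0.50, SE 0.88). Cebpd had 48.0, 30.7 and 20.6 CPM with high and 42.5, 16.6 and 25.8 CPM with low litter size (0.23, SE 0.44). The log2 fold changes without high replicate 3 were 1.36 for Zfp423, -2.1 for Klf4 and 0.74 for Cebpa. They were -2.45 for Cebpb and 0.28 for Cebpd.

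Among other droplet proteins (11 tested, 9 positive, median 1.65, or 0.52 without high replicate 3), Cidea and Cideb, relatives of Cidec, had fold changes of opposite sign. Cidea, best known from brown fat, had 16.0, 119 and 4.63 CPM with high and 2.02, 4.53 and 1.71 CPM with low litter size (log2 fold change 4.08, SE 1.23). Cideb, best known from liver and gut, had 0.358, 0.999 and 1.71 CPM with high and 7.28, 9.81 and 1.83 CPM with low litter size (-2.62, SE 0.82). In both cases the groups were apart, by a narrow gap between high replicate 4 and the nearest low library. Without high replicate 3, Cidea had 1.91 and Cideb -2.6.

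Lipolysis genes (10 tested, 8 positive, median 1.87, or 0.45 without high replicate 3) held Aqp7, the glycerol channel of fat cells, at 3.25 (SE 1.24) and the monoglyceride lipase Mgll at 2.5 (SE 1.01), or 1.13 and 0.57 without high replicate 3. Triglyceride synthesis genes were positive in 10 of 10 (median 2.32), or in 8 of 10 (median 0.35) without high replicate 3, with the acyltransferase Agpat2 at 3.42 (SE 1.2) and Gpd1, which supplies glycerol phosphate, at 2.85 (SE 0.97). Agpat2 had 1.08 and Gpd1 1.35 without high replicate 3. For all 4 genes the groups overlapped.

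Fatty acid synthesis genes (11 tested, 10 positive, median 1.25, or 1.05 without high replicate 3) were highest in high replicate 3 for 6 of the 11. Me1, which makes NADPH for fat synthesis, had 270, 304 and 901 CPM with high and 84.0, 129 and 127 CPM with low litter size, and Acly, which makes cytosolic acetyl-CoA, had 900, 553 and 345 CPM with high and 215, 294 and 253 CPM with low litter size. Neither was highest in high replicate 3, and their log2 fold changes of 2.12 (SE 0.53) and 1.24 (SE 0.39) were 2.37 and 1.3 without it.

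Fatty acid uptake genes were positive in 11 of 11 (median 0.89), or in 8 of 11 (median 0.10) without high replicate 3. The acyl-CoA synthetase Acsl1 had 316, 5469 and 308 CPM with high and 20.9, 200 and 107 CPM with low litter size (log2 fold change 4.22, SE 1.47, and 1.52 without high replicate 3), and the transporter Slc27a1 had 2.90 (SE 1.13), or 0.48 without it. The list of other secreted and surface proteins was positive in 22 of 22 (median 1.95), or in 20 of 22 (median 0.73) without high replicate 3. Mrap, an accessory protein of the corticotropin receptor that fat cells express, had 35.0, 206 and 60.9 CPM with high and 3.58, 16.7 and 17.7 CPM with low litter size (2.99, SE 0.86), with groups apart. The pyruvate carboxylase Pcx had 2.58 (SE 0.93). Mrap had 1.92 and Pcx 1.12 without high replicate 3.

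Receptors and partners of the hormones were nearer to the whole table (13 tested, 9 positive, median 0.37, or 0.06 without high replicate 3). The adiponectin receptor Adipor2 had 1.6 (SE 0.57) and the insulin receptor substrate Irs2 1.98 (SE 0.59), with groups apart for both. These were 0.78 and 1.03 without high replicate 3. Brown fat genes (11 listed, 9 tested, 8 positive) had a median of 2.58, or 0.68 with 5 of 9 positive without high replicate 3, and the lipid elongase Elovl3 had 2.25, 90.1 and 2.71 CPM with high and 0.924, 0.0533 and 0.156 CPM with low litter size. Dio2, which activates thyroid hormone, had 64.1, 163 and 124 CPM with high and 207, 363 and 491 CPM with low litter size (-1.59, SE 0.46). Ucp1, the uncoupling protein of brown fat, was left out by the filter and is named after its values were seen: it had 6.95, 74.9 and 0.151 CPM with high litter size, 0 counts in low replicates 1 and 2 and 0.039 CPM in low replicate 5. The library with most of the 10 white fat genes, high replicate 3, thus also had most Ucp1, and 7 of the 9 tested brown fat genes were highest there. Prdm16 and Zic1 of the same list, also named after their values were seen, were not. Prdm16 had 9.74 CPM in high replicate 3, below high replicate 1 (15.6 CPM) and low replicate 1. Zic1, left out by the filter, had 1 count in high replicate 3 and 5 to 12 counts in the other libraries. Whether that library held brown fat was not tested.

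Genes whose pattern over the 6 libraries was most like that of the 10 were ranked by Pearson's r between their log2 CPM and the mean centred log2 CPM of the 10, among 12052 coding genes of at least 5 CPM on average, leaving out clone and predicted-gene names. The 10 highest had r of at least 0.993 and were Sycp3, Car3, Cav1, Cd36, Trarg1, Rbp4, Apol6, Dmtn, Irs3 and Cd209b. Of these, Car3, Cav1, Cd36, Trarg1 and Rbp4 stood in the fat-cell lists. Without high replicate 3 and low replicate 1, the libraries farthest from the median, r of these genes stayed between 0.95 and 0.999. These are descriptions of 6 shared libraries, with the highest values picked from many genes and with no p.

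Car3, a carbonic anhydrase abundant in rodent fat, had 2664, 19774 and 1940 CPM with high and 191, 2419 and 700 CPM with low litter size. Cd36, a fatty acid translocase, had 714, 4877 and 692 CPM with high and 79.8, 817 and 177 CPM with low litter size. Both had high replicate 3 far above the rest and low replicate 2 close to high replicate 1, as Adipoq had. Sycp3, a protein of the meiotic chromosome axis, ranked first at low levels, with 5.01, 25.2 and 4.27 CPM with high and 0.578, 5.28 and 1.64 CPM with low litter size.

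Levels of markers of other cell types are set beside those of the 10 genes. The summed level of the 10 was 4559, 34311 and 3562 CPM with high and 525, 4630 and 1721 CPM with low litter size. Red cell markers (7 genes) summed to 190, 2365 and 293 CPM with high and 200, 369 and 129 CPM with low litter size, and were likewise highest in high replicate 3. Macrophage markers (10 genes, none at 0) summed to 747, 1178 and 502 CPM with high and 620, 654 and 581 CPM with low litter size, and 9 of the 10 were highest in high replicate 3. Endothelial markers (10 genes, none at 0) summed to 1195, 1233 and 618 CPM with high and 448, 640 and 677 CPM with low litter size, close together in high replicates 1 and 3, and 3 of the 10 were highest in high replicate 3.

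Oocyte markers (10 genes) summed to 2.40, 3.68 and 73.5 CPM with high and 16.5, 4.21 and 52.8 CPM with low litter size, and the 3 libraries of lowest oocyte level were the 3 of highest fat-cell level. Granulosa markers (9 genes) summed to 310, 247 and 968 CPM with high and 1198, 951 and 1783 CPM with low litter size. In low replicate 2 most of that sum came from Inhbb (629 CPM) and Gja1 (297 CPM), which other cells also express. The inhibin subunit gene Inha stood at 1.64, 2.12 and 199 CPM with high and 182, 1.23 and 110 CPM with low litter size, and 4 of the 9 granulosa markers were under 1 CPM in each of high replicates 1 and 3 and low replicate 2, against 0 in the other libraries. Luteal and theca markers summed to 202, 253 and 10940 CPM with high and 891, 109 and 3661 CPM with low litter size. Most of that sum was Scarb1 in high replicate 1 (158 CPM), high replicate 3 (183 CPM) and low replicate 2 (58.7 CPM). The part that the makeup of the tissue pieces had in the fold changes of the 10 genes was not tested. Smooth muscle markers (8 genes) summed to 3817 to 11822 CPM in the high group and 8919 to 17135 CPM in the low group. Markers of fat-cell precursors and fibroblasts (9 genes) summed to 4944 to 12279 CPM in the high and 5742 to 14265 CPM in the low group. Both sums had their lowest value in high replicate 3. Epithelial markers (8 genes) summed to 538 to 1277 CPM in the high and 1849 to 4220 CPM in the low group. Of these, 6 had negative log2 fold changes and 2 positive ones, Krt5 (81.5, 68.2 and 207 CPM with high and 2.89, 12.9 and 0.429 CPM with low litter size) and Krt14 (30.5, 1.62 and 193 CPM with high and 6.07, 0.533 and 0.429 CPM with low litter size), both keratins of basal epithelial cells. DESeq2 called 7 of the 8, 6 lower and Krt5 higher, where it called 4.3% of all genes lower and 2.26% higher. The edgeR quasi-likelihood test called 0 (adjusted p 0.162 to 0.312). In the other marker lists DESeq2 called the endothelial gene Esam higher, and Inhbb and the smooth muscle gene Actg2 lower.

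**Figure D5:**
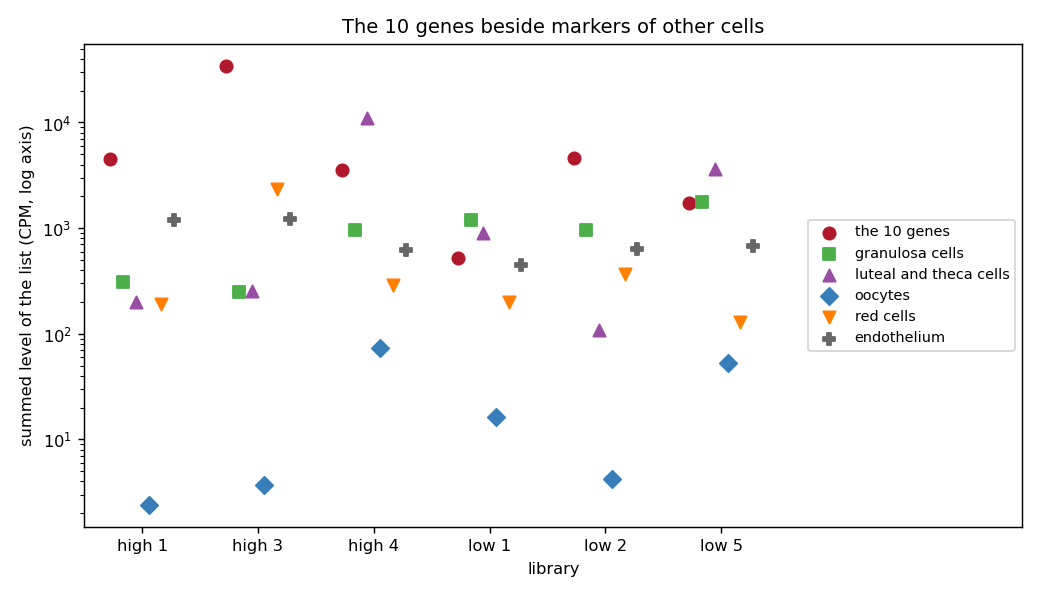
Summed level in CPM (log axis) of the 10 fat-cell genes and of markers of other cells in each library, offset sideways for clarity. The red circles peak in high replicate 3 at 34311 CPM, where oocyte markers sum to 3.68 CPM, and are lowest in low replicate 1 at 525 CPM.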

How the data were processed

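The deposited table holds estimated counts per gene, made by the authors. Tools listed in the submitters' processing notes are kallisto, Trim Galore and DESeq2, with the build GRCm38. The values are whole numbers, and whether the authors rounded them is not stated. kallisto shares reads between similar transcripts. Symbols came from a table of gene names (35869 of 36727 genes), and coordinates, gene types and lengths from GENCODE M21 on GRCm38 (35948 genes). Groups came from the labelled litter size. No table column was left unused (0).

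Genes were kept by filterByExpr (minimum count 10, minimum total 15), leaving 16455. After TMM scaling, edgeR 4.0.16 in R 4.3.3 gave the quasi-likelihood F test, high minus low with all 6 libraries, Benjamini-Hochberg adjustment over all genes tested and a threshold of 0.05. SE was the log2 fold change over the root of F. The common dispersion gave a biological coefficient of variation of 46.8%. Log2 CPM used a prior count of 2. DESeq2 1.42.0 and limma 3.58.1 served as alternatives, and the fits were tested on simulated data. On counts simulated for this comparison (high against low, 16455 genes), the edgeR test recovered 26.5% of 200 genes changed 4-fold and 98% of 200 changed 16-fold. The changed genes were drawn at random from those of at least 5 CPM, with counts independent between genes. The 10 genes varied together between libraries, so these rates do not give the power for them.

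The 10 genes were given as a list, and of each further list the 2 genes of smallest p were named, as well as the 10 genes most alike with a mean of at least 5 CPM. The members and lists were chosen with earlier results of these data known. Depth was 17620903 to 24758222 counts per library, and a count of 1 corresponded to 0.039 to 0.0624 CPM. Summaries and figures used Python 3.11.15, pandas 2.3.3 and matplotlib 3.10.9.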

Additional observations from a re-analysis of the deposited data

How the results depend on the processing

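With 3 libraries a group and 16.0- to 203-fold differences between libraries, the precision of each fold change is limited by the spread, not by depth. The 10 fold changes were positive in every setting run (other scalings, filters and tests, and each library left out). Their median was 2.44 and lay between 0.90 and 3.67 with a library left out. High replicate 3 and low replicate 2 together were left out as a choice made after the data were seen, which gave a median of 1.86. Of the 10, 1 passed with DESeq2 and 1 with the edgeR likelihood ratio test, Pparg in both, and 0 in the other settings. The count of genes called over the whole table was 1, and it was 2 with library size scaling, 3 with limma voom, 1026 with DESeq2, 631 with the edgeR likelihood ratio test, 0 to 1 with a library left out and 0 without high replicate 3 and low replicate 2 together. In simulated data with no change, DESeq2 called 44 of 16455 genes and the edgeR quasi-likelihood test 0. Those counts were independent between genes and held no differences between libraries shared by many genes. They therefore give no rate of false calls for the real data. Why the count of genes called differed between settings was not tested. For the 10 and the 18 other genes named by rule, 412 alternative values held 0 of opposite sign and 23 that passed, all 23 with DESeq2 or the likelihood ratio test. The 18 were picked for small p in the main fit, and the refits reuse the same libraries. Their agreement in sign was thus largely set in advance. Group means of the 10 moved by less than 1 SD with library size or RLE scaling. This check could hardly have failed, because the TMM factors ran only from 0.839 to 1.10 while the SDs were large beside the means. No paired analysis was possible because number 1 is the lone replicate number found in both.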
